A study of Mus musculus with 12 samples.

Results

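Overexpression of Tnrc6a was compared with overexpression of Cas9 in mouse embryonic stem cells labelled Trim71-/-. The comparison set the 3 libraries of Trim71-/- cells with Tnrc6a against the 3 of Trim71-/- cells with Cas9, which are 6 of the 12 libraries of the study, and took in every gene tested, 20486 of the 20529 listed. The cells were of the strain 129S6/SvEvTac and all groups carried the GFP_5xT71BS reporter and a stable FLAG-Cas9 construct with blasticidin selection. The Cas9 label of the control arm thus names a protein that, per the labels, every group carries. Cells grew on gelatin in serum with LIF, the cytokine that keeps mouse stem cells undifferentiated. The other 6 libraries repeat the same treatments in control cells (3 with Tnrc6a and 3 with Cas9) and served as the reference for the genotype. Per the labels, the libraries are stranded total RNA. The labels name no separate lines or clones for the replicates, so each group was presumably 1 line. All p values therefore measure the spread between these samples, which may be technical, and line and treatment cannot be told apart. No source used here gives the promoter that drives Tnrc6a.

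Samples were placed by title and overexpression tag. The free text on the input RNA goes against both: it names HA-AVI-Tnrc6a for the Cas9 Trim71-/- libraries, and HA-AVI-Tnrc6a with Upf1-/- for the Tnrc6a Trim71-/- libraries. Tnrc6a RNA, given below, follows the tag and not that text. Upf1, the helicase of nonsense-mediated decay, was at 249, 234 and 243 CPM (counts scaled to library size) with Cas9 and at 232, 229 and 228 CPM with Tnrc6a. The RNA level of a gene need not fall in a knockout. Trim71 itself was at 275 ± 14.2 CPM (SD, n = 3) with Cas9 and 240 ± 9.13 CPM with Tnrc6a, close to the 306 ± 14.2 and 264 ± 11.9 CPM of the control groups, so it checks no genotype. Ccr4, the neighbour downstream of Trim71 and the gene of a chemokine receptor, was at 40.7 ± 0.868 CPM with Cas9 and 24.3 ± 1.54 CPM with Tnrc6a, against 0.706 ± 0.356 and 0.890 ± 0.0893 CPM in the control groups, so that the libraries labelled Trim71-/- stand apart from those labelled control at this locus.

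TNRC6 proteins, also called GW182, are the partners of Argonaute proteins. Argonaute holds a microRNA, the microRNA pairs through its seed with the 3′ UTR of an mRNA, and TNRC6 brings in the deadenylases that shorten the poly(A) tail and lead to decay of that mRNA. Mouse embryonic stem cells express chiefly microRNAs of the miR-290 and miR-302 and the miR-17 families, while mature let-7 is held low by LIN28 proteins and is linked to differentiation. TRIM71, itself encoded by a let-7 target, binds mRNAs through its NHL domain and represses them.

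The microRNAs whose seed matches were sorted in what follows are shown here because the seed decides which mRNAs are targets. Capitals mark the seed, bases 2 to 8, and the sequences are those of RefSeq on GRCm38.p6. The members of the let-7, miR-290 and miR-302 and miR-17 families shown share a seed within each family. The miR-206 and miR-223 sequences serve as a comparison, since they are microRNAs of muscle and of myeloid cells.
mmu-let-7a-5p: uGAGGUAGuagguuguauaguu
mmu-let-7g-5p: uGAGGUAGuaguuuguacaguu
mmu-miR-294-3p: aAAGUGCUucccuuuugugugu
mmu-miR-295-3p: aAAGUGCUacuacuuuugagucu
mmu-miR-302b-3p: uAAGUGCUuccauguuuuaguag
mmu-miR-17-5p: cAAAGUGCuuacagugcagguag
mmu-miR-20a-5p: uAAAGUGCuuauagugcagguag
mmu-miR-206-3p: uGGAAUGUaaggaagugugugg
mmu-miR-223-3p: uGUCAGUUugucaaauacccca
The seed of miR-17 and miR-20a holds AAGUGC, as does the seed of the miR-290 and miR-302 family, shifted by 1 base, so that the same stretch of a UTR can match both. Of the tested genes, 1138 had a match to each.

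Library totals lay between 23215587 and 31552915 counts with Cas9 and between 24303863 and 26467426 with Tnrc6a. More genes had at least 1 count with Tnrc6a, 20514 to 20518 per library, than with Cas9, 20185 to 20274. The scaling factors by trimmed mean of M values (TMM) were also apart, 0.934 to 0.945 with Cas9 and 1.041 to 1.048 with Tnrc6a. Principal components of the 12 libraries held 63.4% (first) and 16.8% (second) of the variance. Gm26917, a noncoding RNA known to collect reads of ribosomal RNA, was at 498 ± 43.0 CPM with Cas9 and at 2275 ± 126 CPM with Tnrc6a, and its part in the results was not tested. Gm42418, of the same kind, was at 1020, 1125 and 2449 CPM with Cas9 and at 1848, 1985 and 1808 CPM with Tnrc6a. These groups overlap, with Cas9 replicate 3 apart from the other Cas9 libraries, and the difference was not called (0.30, SE 0.44, edgeR adjusted p = 0.588). In bulk RNA, fewer cells of a type and less RNA per cell cannot be told apart.

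Tnrc6a (ENSMUSG00000052707, chr7:123123885-123195296, plus strand, GRCm38) was higher in the libraries labelled with it. Its level was 152, 148 and 133 CPM in the 3 Cas9 libraries and 3477, 3684 and 3704 CPM in the 3 Tnrc6a libraries, a log2 fold change of 4.65 (SE 0.04, edgeR adjusted p = 7.67e-48). The groups lie far apart, and the same change was seen in control cells (4.65; interaction -0.0038, SE 0.05, edgeR adjusted p = 0.983). Per length, as the deposited RPKM (reads scaled to gene length and library size), Tnrc6a went from 11.4 ± 0.770 to 285 ± 9.87 (SD, n = 3). Its share of the summed RPKM of the 3 Tnrc6 genes went from 55.1 to 60.0% with Cas9 to 97.0 to 97.3% with Tnrc6a.

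The other members of the family moved little. Tnrc6b, a paralog with the same role, was at 2.32, 2.52 and 2.59 RPKM with Cas9 and at 2.82, 2.69 and 3.01 RPKM with Tnrc6a. It was 1.15-fold higher (log2 fold change 0.20, SE 0.07, edgeR adjusted p = 0.0196), a call that was lost without Cas9 Trim71-/- replicate 1 (0.15) or Tnrc6a Trim71-/- replicate 3 (0.16). Tnrc6c, the third paralog, was at 5.93 ± 0.269 RPKM with Cas9 and 5.64 ± 0.181 with Tnrc6a, with overlapping groups (-0.07, SE 0.05, edgeR adjusted p = 0.175). In control cells Tnrc6c fell by 0.41, and this contrast between the genotypes passed its own test (interaction 0.34, SE 0.06, edgeR adjusted p = 0.000414).

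Among the Argonaute genes, whose products bind microRNAs, Ago1 fell. It was at 9.09, 8.92 and 8.15 RPKM with Cas9 and at 5.25, 5.44 and 5.75 RPKM with Tnrc6a, so the groups do not overlap (-0.67, SE 0.05, edgeR adjusted p = 4.52e-15). The catalytic Ago2, the member that can cut its target and the most abundant of the 4, was at 18.01, 20.7 and 18.9 RPKM with Cas9 and at 16.4, 16.2 and 18.2 with Tnrc6a. The groups overlap at this spread, with 1 Tnrc6a library above 1 Cas9 library, and the difference did not pass (-0.18, SE 0.10, edgeR adjusted p = 0.152), although a fit on these 6 libraries alone called it (-0.18), as did a fit with a replicate block (-0.19). Ago3 was 1.17-fold higher (0.23, SE 0.09, edgeR adjusted p = 0.0192; 0.11 and not called without Tnrc6a Trim71-/- replicate 3). Ago4, the rarest, went from 0.0995 ± 0.0311 to 0.352 ± 0.0355 RPKM (1.78, SE 0.26, edgeR adjusted p = 8.61e-08) and still stood far below Ago2.

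**Figure D1:**
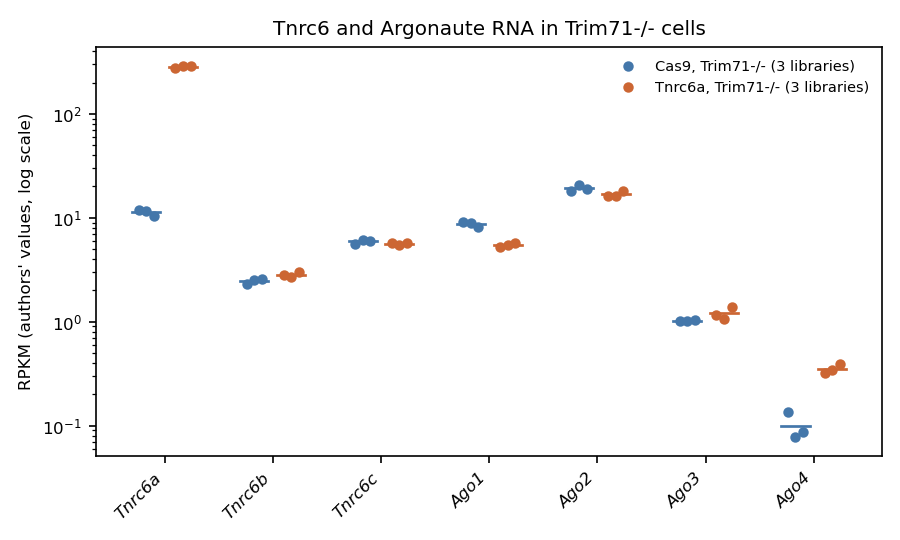
RPKM (authors' values, log axis) of the 3 Tnrc6 and 4 Ago genes in the 6 Trim71-/- libraries: each point is a library, each bar a mean of 3, blue for Cas9 and orange for Tnrc6a. Tnrc6a stands at 11.4 with Cas9 and 285 with Tnrc6a, while each of the other 6 genes keeps a similar level in both groups except Ago1, which is lower, and Ago4, which goes from 0.0995 to 0.352.

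Across all genes, 62.9% of those tested passed an adjusted p of 0.05 in edgeR, 12883 genes, of which 6561 were higher (32.0% of those tested) and 6322 lower (30.9%). At least 2-fold, 2366 genes were higher (11.5%) and 588 lower (2.87%). The 3 libraries of one group and the 3 of the other did not overlap for 13450 genes (65.7%). Among genes with a mean of at least 1 CPM, 68.6% were called. With so wide a background, a list is read here by how far its counts lie from these shares, and by its median beside that of all genes tested, 0.02 on the log2 scale (quartiles -0.33 and 0.45). The shares differ with the level of the gene, as given next, and lists were not matched for level. The part of level in the counts of a list was not tested.

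The direction went with the level of the gene. Genes with over 100 CPM in the Cas9 control libraries, which are not part of this comparison, had a median log2 fold change of -0.22, with 1621 of 2512 lower and 418 higher. Genes of 0.1 to 1 CPM had a median of 0.46, with 1303 of 3865 higher and 206 lower. Genes under 0.1 CPM had a median of 3.89, with 303 of 354 higher and 1 lower. In 144 genes no count was seen over the 3 Cas9 Trim71-/- libraries, against 2 genes with none over the 3 Tnrc6a libraries. The deposited table lists only genes with at least 46 counts over the 12 libraries. A gene with no count in a group is therefore listed only where other libraries have counts. This holds for both groups alike, and the part of this floor in the counts of 144 and 2 was not tested. Genes low in the Cas9 control libraries are likewise listed only where the 12 libraries together reach the floor. The part of the floor in the classes of low level was not tested either. Protein-coding genes had a median of 0.09 and processed pseudogenes one of -0.36, with 1529 of 3185 lower.

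**Figure D2:**
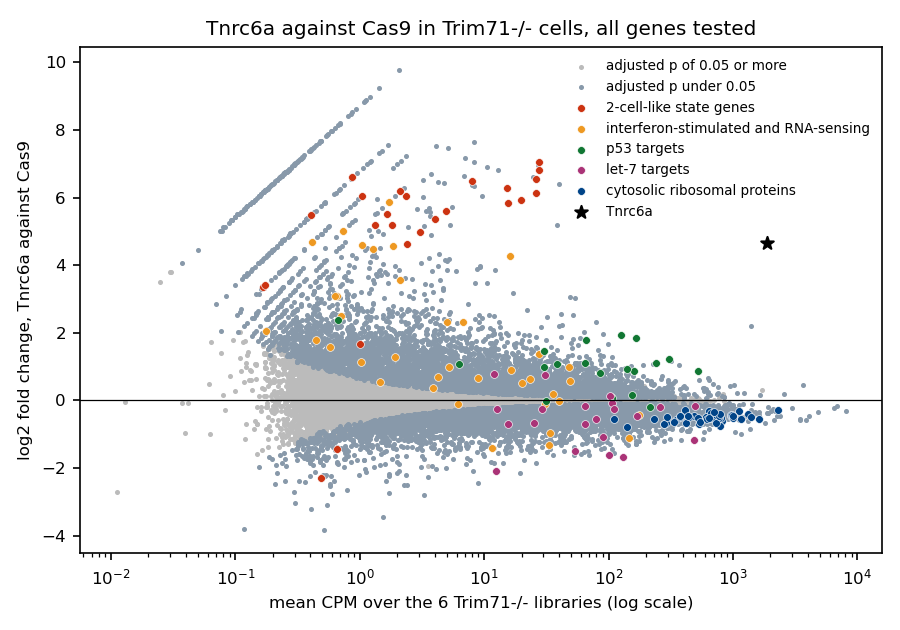
Each point is 1 of the 20486 genes tested: its log2 fold change (Tnrc6a against Cas9 in Trim71-/- cells, vertical axis) against its mean CPM over the 6 libraries (log axis), with 5 gene lists in colour and Tnrc6a as a star. The 2-cell-like genes include the highest of the coloured points and lie between 1.67 and 7.06, apart from Cphx1 and Cphx2 below 0. Their range overlaps that of interferon-stimulated genes such as Gbp2 (5.86). The ribosomal protein genes lie together below 0 at the right.

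The genes of the 2-cell-like state moved furthest. This is a rare and passing state of stem cell cultures in which genes and retroelements of the 2-cell embryo are switched on by DUX and ZSCAN4 proteins. Of 29 genes in the list, 25 were tested, 23 were higher and 2 lower, with a median log2 fold change of 5.59 (5.83 with genes of 1 to 3 counts set at their count ratio). The summed level of the 25 genes was 8.38, 6.99 and 6.36 CPM with Cas9 and 390, 387 and 370 CPM with Tnrc6a. Nearly all of this level lies in the Tnrc6a libraries, and genes so low with Cas9 are listed only where other libraries have counts, so the count is a description. No tested gene carried the names Tcstv2b, Dux, Prame or Dub1a, but a DUX family gene was tested under the name Duxf3.

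Zscan4c (chr7:11005745-11010547, plus strand) was at 0.604, 0.455 and 0.323 CPM with Cas9 and at 57.9, 53.6 and 52.2 CPM with Tnrc6a, 114-fold higher (log2 fold change 6.83, SE 0.12, edgeR adjusted p = 1.34e-38). Zscan4d (chr7:11161374-11166159, minus strand) went from 0.389 ± 0.194 to 55.2 ± 1.52 CPM (7.06, SE 0.12, edgeR adjusted p = 1.13e-38). The groups do not overlap, and Zscan4a, Zscan4b, Zscan4e and Zscan4f behaved alike, with values between 5.83 and 6.56. The Zscan4 genes are near-identical copies in 1 cluster of chromosome 7, so the share of each copy is uncertain, and the same holds for the Usp17l, Tcstv and Eif1ad copies. Eif1ad8 (6.12, SE 0.11) and Sp110 (6.49, SE 0.20) rose by similar amounts.

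Other members rest on few counts. Duxf3, the DUX family gene tested, had 2 counts over the Cas9 libraries and 25 over the Tnrc6a libraries, a ratio of 11.8 (95% counting interval 2.94 to 103). Tcstv1 had 1 count with Cas9 and 139 with Tnrc6a (ratio 131, interval 23.1 to 5215). Zfp352 had 4 counts with Cas9 and 336 with Tnrc6a (log2 fold change 6.18, SE 0.34). The homeobox genes Cphx1 and Cphx2 went the other way (-1.45, SE 0.35 and -2.30, SE 0.41). Their levels fell from 0.955 ± 0.106 to 0.354 ± 0.176 CPM and from 0.811 ± 0.0840 to 0.160 ± 0.0875 CPM.

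Genes known to start or to hold back this state were in part lower. Of 25 activators and repressors, 2 were higher and 16 lower (median -0.20). Trim28, the corepressor that silences retroelements, fell from 2234 ± 60.0 to 1396 ± 17.2 CPM (-0.68, SE 0.03), and Uhrf1, which guides maintenance DNA methylation, from 359 ± 8.62 to 221 ± 1.96 CPM (-0.70, SE 0.04). The activators Dppa2 (-0.33, SE 0.04) and Dppa4 (-0.51, SE 0.05) fell as well. E2f6 (0.56), a repressor of germ line genes, was among those higher.

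Most genes of the cell cycle list fell, among them the D-type cyclins. In the list of MYC and cell cycle genes, 18 of 25 were lower and 5 higher (median -0.19). Ccnd1 (chr7:144929931-144939925), which encodes cyclin D1, was at 147, 150 and 156 CPM with Cas9 and at 47.4, 49.0 and 51.1 CPM with Tnrc6a, 3.07-fold lower (log2 fold change -1.62, SE 0.04, edgeR adjusted p = 2.56e-30). Ccnd2 fell from 20.4 ± 1.87 to 4.77 ± 0.437 CPM (-2.10, SE 0.11) and Ccnd3 from 390 ± 9.62 to 170 ± 11.9 CPM (-1.20, SE 0.04). Their kinases Cdk4 (-0.91, SE 0.04) and Cdk6 (-1.20, SE 0.07) fell with them.

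Myc, the growth-promoting transcription factor, was at 80.7, 77.7 and 78.9 CPM with Cas9 and at 27.3, 27.2 and 28.8 with Tnrc6a (-1.51, SE 0.06, edgeR adjusted p = 1.10e-25). No library of either group came near the other group. Mycn fell from 123 ± 8.98 to 58.7 ± 1.14 CPM (-1.07, SE 0.05). Of the inhibitors of the cyclin kinases, Cdkn2b (1.52, SE 0.22), Cdkn2c (1.13) and Cdkn1b (0.34, SE 0.06) went up. Cdkn1c, an inhibitor in the list of imprinted genes, fell (-1.06). Ccne2, the cyclin of S phase entry, was also higher, from 27.8 ± 1.85 to 63.6 ± 3.84 CPM (1.19, SE 0.06), while Ccne1 (-0.44) was lower.

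Several of these genes belong to the reported targets of let-7, of which 17 of 21 tested were lower and 3 higher (median -0.46). Lin28a (chr4:134003330-134018841, minus strand), the RNA-binding protein that blocks let-7 maturation, was at 193, 204 and 202 CPM with Cas9 and at 64.7, 63.2 and 60.7 CPM with Tnrc6a. It was 3.18-fold lower (log2 fold change -1.67, SE 0.04, edgeR adjusted p = 1.45e-31), and the groups were wide apart. Hmga1, a chromatin architectural protein, fell from 669 ± 26.5 to 298 ± 5.35 CPM (-1.16, SE 0.04), Hmga2 from 31.1 ± 1.56 to 19.5 ± 1.49 (-0.68, SE 0.07) and Igf2bp3 from 80.2 ± 1.47 to 49.1 ± 0.706 (-0.71, SE 0.05). Among the members that were higher were Arid3a (0.79, SE 0.09) and Plagl2 (0.74, SE 0.07).

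The number of let-7 sites differs among these genes. A match to let-7 followed by A (an 8mer, in capitals) in the longest annotated 3′ UTR was found by script in GENCODE M21 on GRCm38. Sites are shown for genes that fell and for Arid3a, which rose. The search takes only this 8mer, so the capitals are the same in each by construction.
Lin28a, chr4:134005181-134005204, minus strand: ctgttgaaCTACCTCAtttttgcc
Lin28a, chr4:134004543-134004566, minus strand: ccacaaacCTACCTCActgtgttg
Hmga2, chr10:120364216-120364239, minus strand: ttcaatttCTACCTCAgcatcagt
Arid3a, chr10:79953902-79953925, plus strand: gtttctttCTACCTCAggtctttt
Lin28a held 2 let-7 matches of 7 or 8 bases and Hmga2 held 4, while Arid3a held 2. Ccnd1, Ccnd2 and Myc, which fell more than most of the list, had none in the longest annotated UTR, and Trim71, with 4, was 1.14-fold lower (-0.19, SE 0.04, edgeR adjusted p = 9.04e-05). A match is a description and shows no use of the site.

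The reported targets of the miR-290 and miR-302 family leaned the other way, with 13 of 22 higher and 4 lower (median 0.27). Lats2 (chr14:57689662-57758388, minus strand), a kinase of the Hippo pathway, was at 6.98, 6.66 and 7.56 CPM with Cas9 and at 23.1, 24.0 and 22.9 CPM with Tnrc6a (log2 fold change 1.73, SE 0.09, edgeR adjusted p = 2.59e-21). Its groups are wide apart. Tgfbr2, the type II receptor of TGF-beta, rose from 1.53 ± 0.434 CPM (2.39, SE 0.17) and Irf2, an interferon regulatory factor, from 0.192 ± 0.0724 to 2.59 ± 0.186 CPM (3.68, SE 0.34). The 4 that fell include Lefty1 (-1.42, SE 0.15) and Lefty2 (-1.40, SE 0.10), secreted inhibitors of Nodal.

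The 8mer of this family is shown for 4 of the genes that rose, with the match in capitals.
Lats2, chr14:57691078-57691101, minus strand: atggaaagAGCACTTAttttgtgg
Tgfbr2, chr9:116087763-116087786, minus strand: aaacctaaAGCACTTAttttcaat
Cdkn1a, chr17:29100492-29100515, plus strand: ggtgtcaaAGCACTTAgtgggtct
Btg1, chr10:96619137-96619160, plus strand: ttttacctAGCACTTAaaatgtat
Lefty1 and Lefty2, which fell, each held 1 such 8mer as well. Ccnd1, Ccnd2 and Mycn each held 1 shorter match of 7 bases to the same seed.

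Seed matches were then taken over all genes. Of the tested genes, 14789 had an annotated 3′ UTR and 5697 had none and were left out. Genes with a match of 7 or 8 bases to let-7 (CTACCTC, 1522 genes) had a median log2 fold change 0.06 above that of genes without one, and the difference was 0.0531, 0.0562 and 0.0647 in the 3 Tnrc6a libraries. For miR-290 and miR-302 (AGCACTT, 2461 genes) the difference was 0.0889 (SD 0.0077) and for miR-17 (GCACTTT, 2035 genes) 0.116 (SD 0.0086). Each SD is over the 3 Tnrc6a libraries, with the difference taken per library from log CPM against the Cas9 mean, not from the fitted values. It leaves out the spread of the Cas9 libraries. All 3 classes stood above genes without a match.

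The comparison seeds gave differences of the same sign. It was 0.0459 (SD 0.0029) for miR-206 (ACATTCC, 1612 genes) and 0.0596 (SD 0.0112) for miR-223 (AACTGAC, 1372 genes), so that let-7 was not above miR-223. Genes with a match have longer UTRs, with a median of 2272 to 2576 bases against 930 to 1017 without. Within 3 classes of UTR length, the mean difference was 0.0522 for let-7, 0.0536 for miR-290 and miR-302, 0.0868 for miR-17, 0.0328 for miR-206 and 0.0363 for miR-223. With 2 or more matches it was 0.0779 for let-7, 0.186 for miR-290 and miR-302, 0.214 for miR-17, 0.0864 for miR-206 and 0.0806 for miR-223. By the mean over UTR classes miR-17 stood highest and miR-290 and miR-302 stood level with let-7, but the classes differed. The let-7 difference was 0.1079 in the shortest UTRs (141 genes with a match), above the 0.0807 of miR-17 and the 0.0477 of miR-290 and miR-302 there, 0.0597 in the middle class and -0.0109 in the longest (946 genes), where that of miR-17 was 0.0576 and that of miR-206 -0.0268. In control cells the differences were 0.0685, 0.0741, 0.0975, 0.0303 and 0.0558 in the order let-7, miR-290 and miR-302, miR-17, miR-206 and miR-223.

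Targets of p53, the stress-activated tumour suppressor, were higher, 16 of 19 tested, with 1 lower and a median of 1.07. Their summed level was 1755, 1749 and 1742 CPM with Cas9 and 3228, 3241 and 3247 CPM with Tnrc6a. Cdkn1a (chr17:29090976-29100727, plus strand), the cell cycle inhibitor p21, was at 28.0, 28.9 and 31.9 CPM with Cas9 and at 102, 98.2 and 107 CPM with Tnrc6a, 3.48-fold higher (log2 fold change 1.80, SE 0.05, edgeR adjusted p = 2.15e-29). It is listed among the miR-290 and miR-302 targets too, so the lists are not independent. Mdm2, the ubiquitin ligase that degrades p53, rose from 151 ± 2.92 to 327 ± 5.82 CPM (1.11, SE 0.04), and the kinase gene Plk2 from 52.2 ± 0.776 to 201 ± 2.99 CPM (1.95, SE 0.04). The death receptor Fas (2.39, SE 0.44) and the BH3-only genes Bbc3 (1.07, SE 0.06) and Pmaip1 (0.98, SE 0.06) rose, whereas Bax, their downstream partner, was slightly lower (-0.20, SE 0.05).

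The machinery of silencing itself was mixed. Of 19 genes of small-RNA silencing, 7 were higher, Tnrc6a included, and 9 lower (median -0.14). Drosha, the nuclear nuclease that cuts microRNA precursors, fell from 301 ± 10.2 to 231 ± 4.77 CPM (-0.39, SE 0.04), and the exporter Xpo5 (-0.39, SE 0.04), the Dicer partner Tarbp2 (-0.46, SE 0.05) and Dicer1 (-0.24, SE 0.05) were lower too. Zswim8, the ubiquitin ligase adaptor of target-directed microRNA decay, rose from 45.6 ± 2.48 to 78.5 ± 4.65 CPM (0.78, SE 0.05), and the terminal uridylase gene Tut7 rose by 0.58 (SE 0.05).

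Genes of mRNA deadenylation, decapping and decay were evenly split, with 13 higher and 14 lower of 33 (median 0.01). The BTG and TOB adaptors, which bring the CCR4-NOT deadenylase to mRNAs, rose: Btg2 from 73.2 ± 2.48 to 262 ± 7.37 CPM (1.84, SE 0.04), Btg1 (1.18, SE 0.07), Tob2 (0.93, SE 0.06) and Tob1 (0.89, SE 0.04). Cnot1, the scaffold of CCR4-NOT, fell from 692 ± 35.8 to 480 ± 21.4 CPM (-0.53, SE 0.06), and the poly(A)-binding protein gene Pabpc4 fell by 0.87 (SE 0.04). For nonsense-mediated decay, 4 of 15 factors were higher and 5 lower, with log2 values from -0.20 to 0.22. Of 19 known substrates of that pathway, 13 were lower and 5 higher (median -0.33): the snoRNA host RNAs Snhg3 (-1.01) and Snhg5 (-0.73) were lower and Atf3 (2.52) and Ddit3 (1.42) higher.

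Pluripotency genes fell unevenly. Of 24 naive genes, which mark the ground state of stem cells, 18 were lower and 2 higher (median -0.30). Pou5f1 (chr17:35506018-35510772, plus strand), which encodes OCT4, was at 1469, 1551 and 1660 CPM with Cas9 and at 783, 792 and 769 CPM with Tnrc6a (-0.9974, SE 0.04, edgeR adjusted p = 2.87e-24). Nanog, a partner of OCT4, was at 768, 780 and 739 CPM with Cas9 and at 806, 793 and 783 CPM with Tnrc6a, a difference that did not pass (0.06, SE 0.03, edgeR adjusted p = 0.127). With upper-quartile factors (0.09) or DESeq2 (0.07) Nanog was called higher. Sox2 (-0.27, SE 0.04), Esrrb (-0.20, SE 0.03) and Zfp42 (-0.26, SE 0.03) fell by less than Pou5f1, and Klf4 was not called (-0.04, SE 0.04, edgeR adjusted p = 0.411; -0.09 and called without Cas9 Trim71-/- replicate 3).

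The largest falls among naive genes were those of Gbx2, a homeobox gene (-1.63, SE 0.06), and of Lifr, the LIF receptor (-1.22, SE 0.05), from 103 ± 3.94 to 44.2 ± 1.10 CPM. Tbx3 (0.38, SE 0.04) and Klf2 (0.18, SE 0.04) were the 2 that rose. Genes of the formative and primed states, which follow the naive state in the embryo, were lower in 10 of 12 tested cases and higher in none (median -0.69). Zic2 (-1.30, SE 0.13), Tcf15 (-1.18, SE 0.05), Etv4 (-1.02, SE 0.04) and Otx2 (-0.90, SE 0.08) fell most. Noncoding RNAs tied to pluripotency were lower in 16 of 23 tested cases and higher in 2 (median -0.88): Platr10 fell from 120 ± 3.42 to 48.4 ± 0.315 CPM (-1.30, SE 0.04), and Platr26 (-2.51, SE 0.22) and Platr3 (-2.23, SE 0.23) from lower levels. The 9 stem cell markers used to check the label were all detected, with a summed level of 6374 to 6432 CPM with Cas9 and 4823 to 4912 CPM with Tnrc6a.

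**Figure D3:**
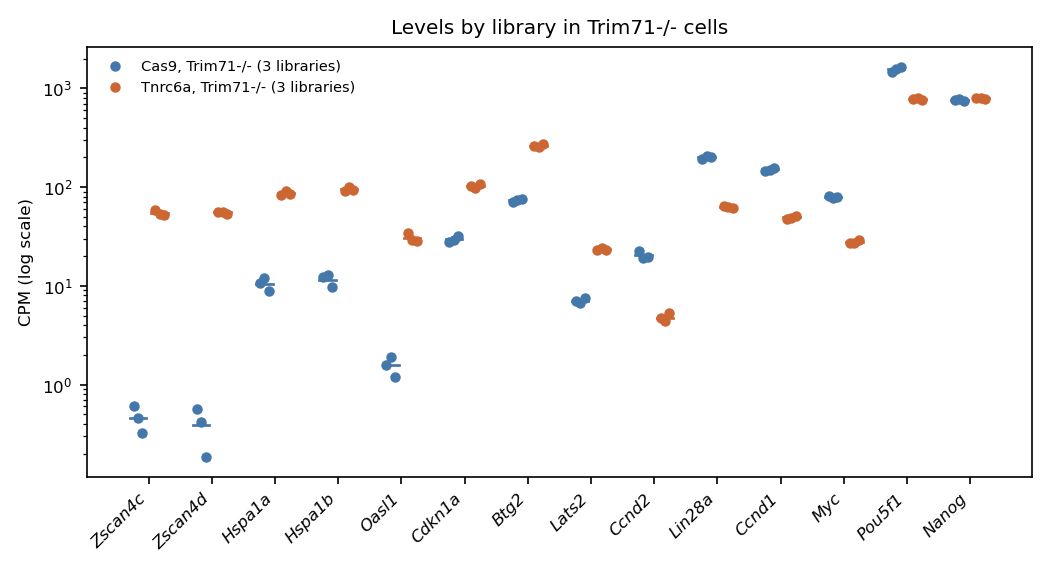
CPM (log axis) of 14 genes in the 6 Trim71-/- libraries: each point is a library, each bar a mean of 3, blue for Cas9 and orange for Tnrc6a. The 8 genes from Zscan4c to Lats2 are higher with Tnrc6a, the 5 from Ccnd2 to Pou5f1 lower, and Nanog stands at 762 and 794.

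Markers of endoderm and trophoblast were more often higher than lower. Of 22 endoderm genes, 14 were higher and 3 lower (median 0.67), and of 14 trophoblast genes 9 were higher and 1 lower (median 0.80). The lowest log2 fold change was -1.105 among the endoderm genes and -0.70 among the trophoblast genes. The genes named next are ones that rose. The keratin Krt18 was at 5.87, 5.54 and 6.55 CPM with Cas9 and at 38.2, 39.0 and 37.4 CPM with Tnrc6a (log2 fold change 2.68, SE 0.09, edgeR adjusted p = 7.43e-25), and its partner Krt8 went from 18.03 ± 2.08 to 65.1 ± 0.913 CPM (1.86, SE 0.06). Krt19 (3.85, SE 0.12), Hand1 (2.85, SE 0.29) and Krt7 (2.46, SE 0.28) rose as well. The endoderm transcription factor Gata6 rose from 0.941 ± 0.235 to 5.09 ± 0.216 CPM (2.42, SE 0.17) and Gata4 from 2.15 ± 0.246 to 6.57 ± 0.932 CPM (1.62, SE 0.14).

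Cdx2, the defining trophoblast factor, was not called (0.81), and Elf5 was not analysed here. The 5 endoderm markers of the check summed to 6.91 to 8.35 CPM with Cas9 and 15.2 to 17.98 CPM with Tnrc6a, and the 3 trophoblast markers tested to 1.49 to 1.66 and 3.64 to 4.26 CPM. Of the endoderm markers, 4 were called higher and 1 lower, and of the trophoblast markers 1 was called higher and 0 lower. Of the fibroblast and feeder markers, 8 of 12 were higher and 2 lower (median 0.56). The 4 markers of the check that were tested summed to 12.9 to 14.5 CPM with Cas9 and 19.1 to 20.8 CPM with Tnrc6a, and Col3a1, Dcn, Lum, Postn and Prrx1 were not analysed here. The 3 neural markers tested were mixed, with 1 higher and 2 lower. Their sums overlapped, at 141 to 157 CPM with Cas9 and 147 to 155 CPM with Tnrc6a. The summed level of the 22 endoderm genes was 1180 ± 22.6 CPM with Cas9 and 1174 ± 34.7 CPM with Tnrc6a, and that of the 14 trophoblast genes 112 ± 1.44 and 251 ± 3.50 CPM. The part of other cells in the results was not tested. Germ cell genes were higher in 13 of 17 cases and lower in 3 (median 0.79), led by Rhox9 (2.54) and the meiotic Tex101 (2.14) and Taf7l (2.16), while Nanos3, a germ cell determinant, fell (-1.23, SE 0.28). Neural genes were higher in 5 of 9 cases and lower in 3, streak and mesoderm genes higher in 5 of 10 and lower in 1, and blood and endothelial markers higher in 6 of 8 and lower in none.

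**Figure D4:**
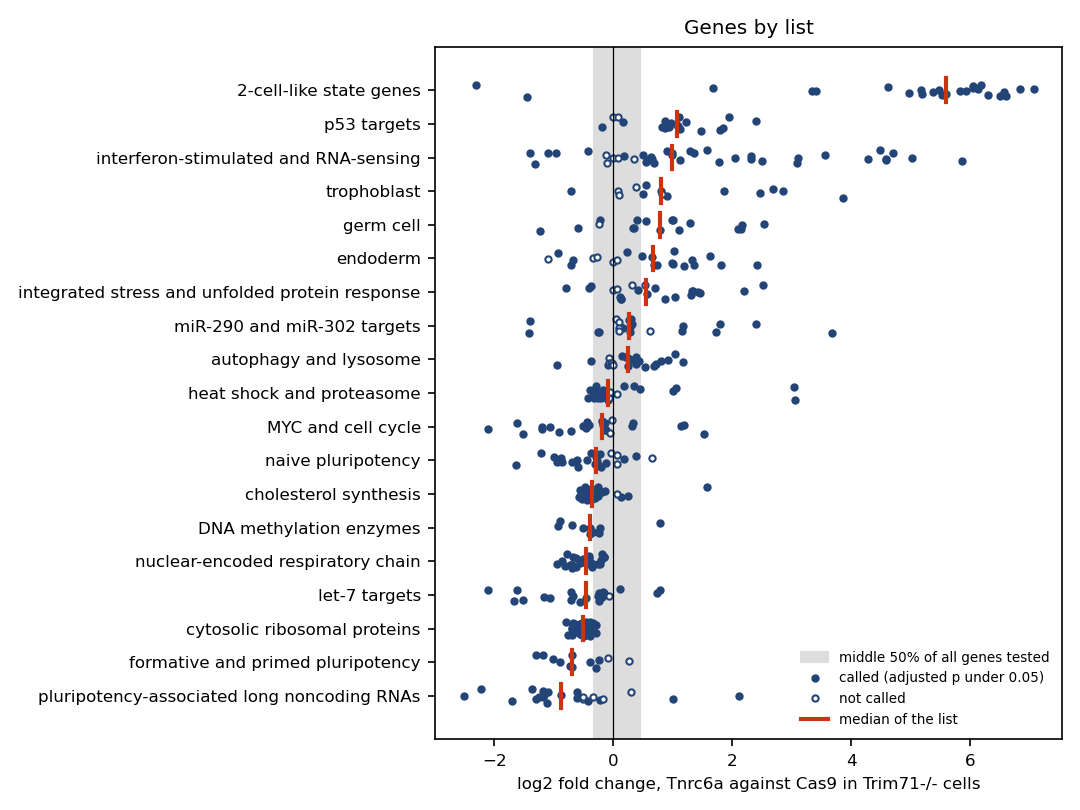
Log2 fold change (Tnrc6a against Cas9 in Trim71-/- cells) of each tested member of 19 gene lists: filled points are called, open points are not, red bars are list medians and the grey band spans the middle 50% of all genes tested, -0.33 to 0.45. The 2-cell-like median (5.59) is the highest of the lists drawn, and the median of the pluripotency-associated noncoding RNAs (-0.88) the lowest.

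Stress genes were higher, in an uneven way. In the list of the integrated stress and unfolded protein responses, which slow translation and raise protein folding capacity, 15 of 22 genes were higher and 3 lower (median 0.54). Atf3 (chr1:191170296-191218039, minus strand), a transcription factor of that response, was at 3.15, 3.47 and 3.04 CPM with Cas9 and at 18.5, 18.9 and 18.3 CPM with Tnrc6a (2.52, SE 0.10, edgeR adjusted p = 3.52e-24). Ddit4, an inhibitor of mTORC1, rose by 2.2 (SE 0.06), the proapoptotic factor Ddit3 by 1.42 (SE 0.08) and the phosphatase subunit Ppp1r15a by 1.3 (SE 0.05). The central factor Atf4 was 1.10-fold higher (0.13, SE 0.04, edgeR adjusted p = 0.00353; 0.09 and not called without Tnrc6a Trim71-/- replicate 2), and its amino acid synthesis targets Phgdh (-0.80) and Psat1 (-0.38) were lower.

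The inducible chaperones Hspa1a and Hspa1b, neighbours on chromosome 17 with near-identical sequence, rose by about the same factor. Hspa1a was at 10.6, 11.9 and 8.76 CPM with Cas9 and at 83.9, 92.1 and 85.0 CPM with Tnrc6a (log2 fold change 3.05, SE 0.09, edgeR adjusted p = 3.90e-17), and Hspa1b rose by 3.04 (SE 0.07). Of the 23 heat shock and proteasome genes, however, 7 were higher and 12 lower (median -0.09). The cochaperones Dnajb1 (1.05, SE 0.04) and Bag3 (1.01, SE 0.06) rose, the mitochondrial chaperones Hspd1 (-0.42, SE 0.04) and Hspe1 (-0.40, SE 0.04) fell, and 8 of the 12 lower genes encode proteasome subunits. Autophagy and lysosome genes were higher in 15 of 23 cases and lower in 3 (median 0.25), with the autophagy receptor Sqstm1 going from 198 ± 6.14 to 444 ± 1.26 CPM (1.17, SE 0.04) and the protease Ctsd from 243 ± 10.1 to 498 ± 9.84 CPM (1.03, SE 0.04).

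Interferon-stimulated and RNA-sensing genes were higher in 29 of 39 tested cases and lower in 5 (median 0.99). Members very low with Cas9 are listed only where other libraries have counts, so the count is a description. Among members with a mean of at least 1 CPM over the 6 libraries, the Tnrc6a libraries included, 21 were higher and 5 lower. Oasl1 (chr5:114923240-114937915), an oligoadenylate synthetase-like gene, was at 1.58, 1.90 and 1.20 CPM with Cas9 and at 34.0, 29.0 and 28.7 CPM with Tnrc6a, 19.4-fold higher (log2 fold change 4.28, SE 0.12, edgeR adjusted p = 1.52e-29). Most of the others rose from very low levels: Isg15, a ubiquitin-like modifier, from 0.138 ± 0.0812 to 3.57 ± 0.260 CPM (4.58, SE 0.34) and Rsad2, which encodes viperin, from 0.315 ± 0.172 to 3.90 ± 0.113 CPM (3.55, SE 0.30). Gbp2, a guanylate-binding protein, had 4 counts with Cas9 and 269 with Tnrc6a (5.86, SE 0.41; 5.19 without Cas9 Trim71-/- replicate 1 and 7.12 without replicate 2). Gbp3 had 3 counts with Cas9 and 115 with Tnrc6a (ratio 36.2, 95% counting interval 12.1 to 178).

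Better expressed members went both ways. The antigen presentation genes H2-K1 (1.36, SE 0.07), from 15.4 ± 0.926 to 39.4 ± 0.715 CPM, and Tap1 (2.32, SE 0.13) rose. The antiviral membrane proteins fell: Ifitm3 from 47.4 ± 1.35 to 18.9 ± 0.570 CPM (-1.32, SE 0.06), Ifitm2 from 199 ± 8.97 to 92.8 ± 4.38 CPM (-1.10, SE 0.04) and Ifitm1 (-1.40, SE 0.13). Rigi, the sensor RIG-I, fell by 0.96 (SE 0.06). The summed level of the 39 genes was no higher with Tnrc6a (836 to 867 CPM) than with Cas9 (880 to 894 CPM). Ifit3, Ifit3b, Mx1, Mx2 and Sp100 were not analysed here.

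The promoters of these genes, taken as 250 bases before to 50 after the RefSeq start on GRCm38.p6, were searched for the core of the interferon-stimulated response element, GAAA followed after any 2 bases by GAAA, on either strand. It was in 17 of 34 list genes with a promoter sequence (50.0%) and in 1079 of all 27025 promoters (3.99%). Matches are shown in capitals for genes that rose (Isg15 and Gbp2) and for Ifitm3, which fell, because the letters do not separate them.
Isg15, chr4:156200873-156200898, minus strand: aggaaaagGAAACCGAAAcagaaaat
Gbp2, chr3:142620596-142620621, plus strand: tcttttagTTTCACTTTCactgtctt
Ifitm3, chr7:141010708-141010733, minus strand: acttctgaGAAACCGAAActgccgca
Of 15 tested genes with a match, 10 were higher and 3 lower (median 0.91), and of 16 without one 11 were higher and 2 lower (median 1.14). The heat shock element searched was GAA, any 2 bases, TTC, any 2 bases and GAA, on either strand. It was in 179 promoters of all genes (0.662%) and in 3 of 18 heat shock and proteasome genes with a promoter sequence (16.7%). These were Hsph1, which rose (0.34, SE 0.03), and Hspd1 and Hspe1, which fell. Of 15 tested genes of that list without a match, 4 were higher and 7 lower (median -0.07). Hspd1 and Hspe1 share 1 promoter region, read in opposite directions.

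Genes of protein synthesis and respiration were lower. All 49 cytosolic ribosomal protein genes fell (median -0.52), from -0.28 (SE 0.04) for Rps19 to -0.79 (SE 0.05) for Rpl38. Their summed level was 37622, 38341 and 42468 CPM with Cas9 and 27941, 28283 and 28327 CPM with Tnrc6a. All 31 nuclear-encoded genes of the respiratory chain fell too (median -0.45), among them Atp5e (-0.94, SE 0.07) and Ndufa7 (-0.86, SE 0.05), and of 15 mitochondrially encoded genes 11 were lower and none higher (median -0.46). These are abundant, short transcripts. Protein-coding genes of at least 1 CPM with a deposited length of up to 2445 bases had a median of -0.09, against 0.03 to 0.10 in the 4 classes of longer genes, and the part of length and level in these results was not tested.

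Among metabolic genes, 18 of 22 of cholesterol synthesis were lower and 3 higher (median -0.36), with Cyp51 (-0.58) and Nsdhl (-0.56) at the lower end. Glycolysis and hypoxia genes were split, with 8 of 23 higher and 11 lower: Vegfa (1.31) was higher and Pdk1 (-1.05), Ldha (-0.67) and Pkm (-0.62) lower. DNA methylation enzymes were lower in 9 of 10 cases: the demethylating dioxygenases Tet1 (-0.90, SE 0.12) and Tet2 (-0.93, SE 0.04) fell and their relative Tet3 rose (0.78, SE 0.10), from 7.71 ± 0.584 to 13.2 ± 1.00 CPM. Imprinted genes were split, with 9 of 22 higher, H19 (1.75) among them, and 10 lower, with Cdkn1c (-1.06). Of 25 replication-dependent histone genes, 3 were higher and 4 lower, below the shares of all genes, and 15 of them had a mean under 1 CPM.

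In signalling, the AP-1 genes rose. Jun was at 12.8, 10.7 and 12.6 CPM with Cas9 and at 73.8, 73.0 and 66.8 CPM with Tnrc6a (log2 fold change 2.56, SE 0.07, edgeR adjusted p = 6.18e-31), and Fosl1 went from 0.651 ± 0.0499 to 9.47 ± 0.868 CPM (3.86, SE 0.18). Of 27 genes of FGF signalling and its ERK-responsive outputs, 9 were higher and 12 lower. The ligand Fgf17 fell from 32.3 ± 3.19 to 9.56 ± 0.603 CPM (-1.75, SE 0.09), and the feedback genes Dusp6 (-0.88), Spry2 (-0.59) and Spry4 (-0.52) were lower. In the Nodal, BMP and TGF-beta pathway, 14 of 26 were higher and 8 lower: the ligand Nodal (0.98, SE 0.05), the inhibitor Smad7 (1.01, SE 0.04) and the receptor Tgfbr2 rose, and the antagonists Lefty1 and Lefty2 and the coreceptor Tdgf1 (-0.94) fell. Of 20 Wnt genes, 8 were higher, led by the ligand Wnt7b (3.15, SE 0.20), and 6 lower, with Porcn (-1.17), which acylates Wnt ligands, lowest. Neuropeptide and secreted signalling genes were higher in 7 of 17 cases and lower in 3, and 5 Y-linked genes were higher in 1 and lower in 2.

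Reported mRNA targets of TRIM71 showed no common direction, with 4 of 13 higher and 3 lower (median -0.03). Cdkn1a (1.80) and Hoxa5 (1.31) were higher, and Inhbb, an inhibin subunit, fell from 495 ± 9.10 to 269 ± 2.38 CPM (-0.88, SE 0.04). Ago2, Mbnl1 (-0.04), Rbl1 (-0.03) and Rbl2 (0.10) were not called.

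Beyond the lists, the largest rises by the rule for named genes included 7 members of the 2-cell-like list. The other named rises were Spopfm1, Inpp4b, Dcc, Eif1ad7 and Ccser1. Spopfm1, a speckle-type POZ family gene, had 1 count with Cas9 and 239 with Tnrc6a (ratio 225, 95% counting interval 40.1 to 8940). Inpp4b, a phosphoinositide phosphatase gene, had 1 and 231 (ratio 218, interval 38.7 to 8642), and Dcc, the netrin receptor gene, 2 and 342 (ratio 161, interval 44.3 to 1337). Eif1ad7, a copy of a translation initiation factor gene, rose from 0.914 ± 0.257 to 78.6 ± 3.11 CPM (6.40, SE 0.10). Ccser1 had 4 counts with Cas9 and 360 with Tnrc6a (6.28, SE 0.36; 7.60 without Cas9 Trim71-/- replicate 3).

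The largest falls were smaller. Insyn2b was at 4.83, 6.70 and 5.62 CPM with Cas9 and at 0.938, 0.847 and 0.631 CPM with Tnrc6a, 7.0-fold lower (-2.81, SE 0.22, edgeR adjusted p = 4.80e-15). The groups do not overlap. Foxr2, a forkhead gene, fell by 2.74 (SE 0.29), Cd59b by 2.26 (SE 0.23), the Fc receptor Fcgr2b by 2.21 (SE 0.24), the prodynorphin gene Pdyn by 2.17 (SE 0.25) and Bcl11a by 2.02 (SE 0.31). Myo1f, an unconventional myosin gene, fell from 31.7 ± 1.96 to 7.17 ± 0.610 CPM (-2.14, SE 0.09), Pax8 from 6.56 ± 0.801 to 1.59 ± 0.121 CPM (-2.04, SE 0.18) and Tgm3 from 7.88 ± 1.02 to 1.97 ± 0.0829 CPM (-2.00, SE 0.15). Many named genes overlap a gene on the opposite strand, among them Sp110, Oasl1, Gbp2, Fcgr2b, Pax8, Krt8, Hspa1a, Ccnd1, Ccnd2, Lin28a, Cdkn1a and Pou5f1. The same holds for Trim71, Upf1, Ago2, Ccnd3, Cdk4, Cdk6, Ccne2, Hmga1, Hmga2, Igf2bp3, Ddit3, Ppp1r15a, Tap1, Sqstm1, Gbx2, Otx2 and Bcl11a. These names are not a complete list. Since no source gives the strand setting used for counting, reads of the overlap cannot be assigned.

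Most of these changes were also seen in control cells, which share no library with the comparison above. In control cells 63.5% of genes passed, 13007, with 30.4% higher and 33.1% lower (11.0% and 3.21% at least 2-fold), and 82.8% of the genes called in Trim71-/- cells were called the same way there, as 82.0% of those called in control cells were called the same way in Trim71-/- cells. Of the genes called in both, 5216 were higher in both, 5456 lower in both and 82 opposite. Across 16740 genes of at least 1 CPM the log2 fold changes of both genotypes had r = 0.915. This is a description across genes, which are not independent replicates.

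The interaction, the Tnrc6a effect in Trim71-/- cells minus that in control cells, passed for 1419 genes (6.93%), 958 positive (4.68%) and 461 negative (2.25%). At least 2-fold these were 0.61% and 0.264% of the genes tested. Positive values made up 67.5% of these, but 55.6% with relative log expression factors and 55.4% in DESeq2, so the balance depends on the scaling. It was also 51.7% without Tnrc6a control replicate 1, 51.1% without Tnrc6a control replicate 2 and 52.9% without Tnrc6a Trim71-/- replicate 2.

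Of the 25 2-cell-like genes, 9 rose further, in ratio, in the Trim71-/- cells (positive interaction), and none had a negative interaction. Zscan4c went from 6.81 ± 0.627 to 155 ± 6.60 CPM in control cells (4.51), against 0.460 ± 0.141 to 54.6 ± 2.97 CPM in Trim71-/- cells (6.83), an interaction of 2.32 (SE 0.20, edgeR adjusted p = 2.80e-11). The summed level of the list was 51.2 ± 1.60 and 993 ± 23.6 CPM in the control groups and 7.25 ± 1.04 and 382 ± 10.4 CPM in the Trim71-/- groups. The gain in CPM was therefore smaller in Trim71-/- cells although the ratio was larger.

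Naive pluripotency genes mostly fell less in Trim71-/- cells than in control cells. Of 24 naive genes, 16 had a positive interaction and 2 a negative one, and the list median was -0.30 here and -0.66 in control cells. Esrrb fell by 0.20 here and by 0.70 in control cells (interaction 0.50, SE 0.05, edgeR adjusted p = 2.58e-10). The interaction of Pou5f1 was not called (0.05, SE 0.05, edgeR adjusted p = 0.686), and Lifr fell more here (-0.37, SE 0.07, edgeR adjusted p = 0.000477). Pluripotency-associated noncoding RNAs had medians of -0.88 here and -0.84 in control cells, with 2 positive and 3 negative interactions. The p53 targets had 13 of 19 positive interactions and none negative, with medians of 1.07 and 0.68. Their summed level went from 1749 ± 6.85 to 3239 ± 10.1 CPM here and from 2267 ± 11.9 to 3346 ± 48.3 CPM in control cells. The list thus started lower here and did not end higher. Pmaip1, which started from 20.2 CPM here and 79.5 CPM in control cells, had the largest interaction of those called (0.82, SE 0.08, edgeR adjusted p = 5.71e-10).

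Trophoblast and endoderm genes showed some interactions of negative sign, 4 of 14 and 6 of 22, against 1 and 2 positive. Krt8 rose to 65.1 CPM here and to 112 CPM in control cells, from similar Cas9 levels (18.03 and 13.3 CPM; interaction -1.21, SE 0.09, edgeR adjusted p = 9.58e-13), and Krt18 had an interaction of -1.001 (SE 0.13). Gata6 differed in the other direction (1.14, SE 0.20, edgeR adjusted p = 0.000106), again from a lower start, 0.941 CPM here and 14.5 CPM in control cells. Egr1, an immediate early gene, stood at 18.1 and 17.4 CPM here and fell from 73.9 to 19.8 CPM in control cells (interaction 1.84, SE 0.12, edgeR adjusted p = 9.58e-13). Ribosomal protein genes had no interaction called among 49.

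**Figure D5:**
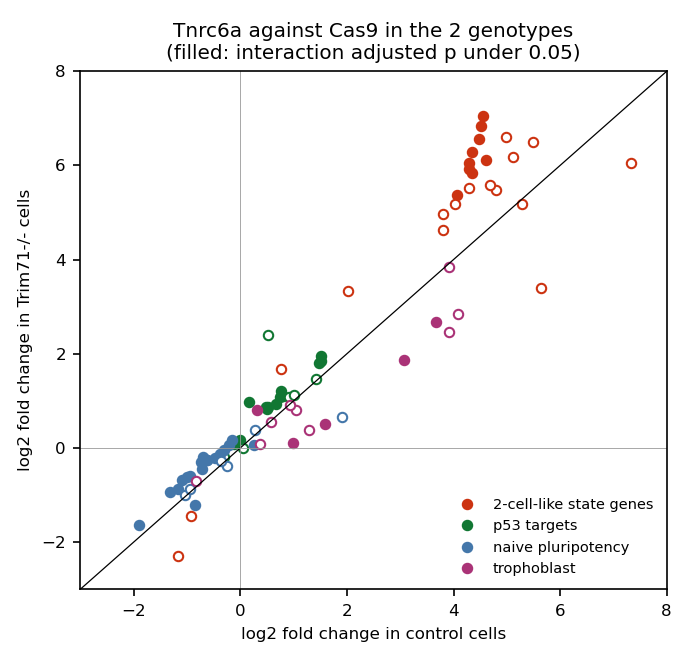
Log2 fold change of Tnrc6a against Cas9 in Trim71-/- cells (vertical axis) against that in control cells (horizontal axis) for the members of 4 lists, with the line of equal change: filled points have an interaction with an adjusted p under 0.05. The 9 filled 2-cell-like genes lie above the line, as do the 13 filled p53 targets, while Krt8 and Krt18 lie below it.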

How the data were processed

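The authors deposited, for each gene and library, whole-number counts without normalization and RPKM values, whose gene length is of a type named quasr per the file headers. In each library the RPKM equalled the counts over that length and over 1 constant (0.935 to 1.078 of the total). Per the submitters' processing notes, bcl2fastq 2.20 and STAR 2.7.3a were used with GRCm38 and mm10. For the counting tool and its strand setting no source used here gives a value.

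Libraries were grouped by title and overexpression tag. Counts were fitted with edgeR 4.0.16 in R 4.3.3, with filterByExpr by group (20486 genes kept), TMM factors and a robust quasi-likelihood model with 1 mean per group over all 12 libraries. Tests were two-sided, with Benjamini-Hochberg adjustment over all genes at 0.05. CPM carry TMM factors and are given as mean ± SD of 3 libraries. For genes with 1 to 3 counts over a group, the ratio of counts is given with its 95% exact interval, which covers counting error only. The procedure was tested on simulated counts.

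The members and the 39 gene lists were chosen with earlier results of these data known. Genes named by rule are the label genes, the Tnrc6 and Ago genes, the 12 largest called rises and falls (libraries without overlap, mean CPM of 1 or more), 5 interactions of each sign and up to 4 members per list. Further list members, and Gm26917, were named after their values were seen. Alternatives were other scaling factors (relative log expression, upper quartile), other filters (none, or 1 CPM in 3 libraries), DESeq2 1.42.0, limma-voom (limma 3.58.1), these 6 libraries alone, a replicate block, a 2-fold minimum, 8mers only and each library left out. Comparison seeds, UTR length classes and promoter motifs were added after the data were seen. Values of 2 list members are not reported here.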

Additional observations from a re-analysis of the deposited data

Results flagged for a closer look

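For 1419 genes the Tnrc6a effect differed between Trim71-/- and control cells by the interaction term of edgeR (adjusted p under 0.05). The values below are that interaction on the log2 scale, and each passed the same test with the settings of the report. Among genes of the 2-cell-like state it was 2.32 for Zscan4c, 2.51 for Zscan4d and 2.08 for Zscan4f, near-identical copies. Among p53 targets it was 0.32 for Cdkn1a, 0.32 for Mdm2, 0.43 for Plk2 and 0.82 for Pmaip1. Among pluripotency genes it was 0.27 for Nanog, 0.36 for Sox2, 0.26 for Klf4, 0.50 for Esrrb, 0.37 for Zfp42 and 0.51 for Foxd3, and for the DNA methyltransferase gene Dnmt3a it was 0.58. Tnrc6c had 0.34 and Ccnd2 -0.68.

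Among lineage markers the interaction was -1.21 for Krt8, -1.001 for Krt18 and 1.14 for Gata6. Egr1 had 1.84, with a fall in control cells and no called change in Trim71-/- cells, and Inhbb had 0.98. The largest positive values by the rule for named genes were those of Ankrd22 (4.45), Inpp4b (3.81), Spopfm1 (3.03), Zscan4d and Dcc (2.35), where Ankrd22, Inpp4b, Spopfm1 and Dcc had 0 to 2 counts over the Cas9 Trim71-/- libraries, so that their fitted values depend on the prior count and are no fold changes. The largest negative values were those of Nostrin (-2.54), Adamts3 (-1.79), Pramel7 (-1.56), Sp5 (-1.52) and Nanos3 (-1.40). Of 19 alternatives, the interaction call of Dcc was lost in 16, the replicate block, both other scalings, DESeq2 and limma-voom among them, so it rests on the settings used. The call was lost in 8 for Nostrin, 6 for Spopfm1, 5 for Nanos3, 4 for Ankrd22 and 3 each for Adamts3 and Sp5.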

How the results depend on the processing

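With a 2-fold minimum, 2954 genes were called in Trim71-/- cells (2366 higher, 588 lower), 2911 in control cells (2254 and 657) and 179 in the interaction (125 and 54). Leaving out 1 library, positive interactions numbered 543 (without Tnrc6a control replicate 2) to 949, with 548 without Tnrc6a control replicate 1 and 584 without Tnrc6a Trim71-/- replicate 2. The seed differences then ranged from 0.0509 to 0.059 for let-7, 0.0848 to 0.1084 for miR-290 and miR-302, 0.1104 to 0.1256 for miR-17, 0.0384 to 0.0487 for miR-206 and 0.0454 to 0.0709 for miR-223. With 8mers only they were 0.108 for miR-290 and miR-302, 0.1733 for miR-17 and 0.0511 for miR-206, and within UTR length classes 0.0536, 0.0868, 0.0328 and 0.0363 (miR-223 last). Leaving out 1 library, values near 0 or of few counts changed sign: the Y-linked median (-0.0814 to 0.015), Nostrin (-1.1299 to 0.2226) and Egr1 (-0.1157 to 0.0261). The causes were not tested. Replicate numbers did not pair the libraries (deviations correlated at -0.05 to 0.04), and a replicate block gave 12789, 12901 and 1335 calls in Trim71-/- cells, control cells and the interaction. Of the values of genes named for Trim71-/- cells, 2359 kept direction and side of the threshold, 7 lost the call, 5 gained it and 2 changed sign. Genes with few counts with Cas9 are limited by depth.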
